A study of Mus musculus with 145 samples.

Results

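The genes described here are 6 regulators of primordial germ cell (PGC) specification, taken by name and not by any measured value: *Prdm1*, *Prdm14*, *Tfap2c*, *Cbfa2t2*, *Nanos3* and *Dnd1*. All 6 were among the 24615 genes counted in single cells by modified STRT-seq, and all 6 were also counted in the RNA arm of scTrio-seq2, a method that reads the RNA and the DNA methylome of the same cell. The starting cells were mouse spermatogonial stem cells (SSCs), the stem cells of the testis, taken from neonatal male *Oct4*-EGFP pups with a C57BL/6 mother and a DBA father (DBA/2 in the study's methods). In SSC medium with EGF, bFGF, GDNF and ESGRO, part of these cells forms over weeks colonies that look like embryonic stem cells. Germline-derived pluripotent stem cells (gPSCs) are established from such colonies after transfer to N2B27 with 2iL. The STRT-seq data held 46 libraries of untreated cultures from day 0 to day 27 (SSCR), 1 gPSC library each at passages 1 and 15 in N2B27 with 2iL, and 1 library of mouse embryonic stem cells (mES) from *Oct4*-EGFP blastocysts. The scTrio-seq2 RNA data held 8 samples treated with 5C, a mix of daphnetin, tauroursodeoxycholic acid, vitamin C, SGC707 and (-)-epigallocatechin gallate, and 5 samples with the vehicle DMSO. All cells of the time courses therefore shared the strain, the reporter and the SSC medium.

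PGCs are the founders of the germline. In the mouse embryo, BMP and WNT signals act on the proximal epiblast and induce *Prdm1* and *Prdm14*, with *Tfap2c* acting together with them. These transcription factors shut down the somatic programme, bring back pluripotency genes and start the erasure of DNA methylation. CBFA2T2 is a co-repressor that holds PRDM14 on chromatin. NANOS3 and DND1 are RNA-binding proteins that act through the CCR4-NOT deadenylase and keep PGCs alive. Several of the 6 have a second life: *Prdm14* and *Tfap2c* are also used by naive pluripotent stem cells, and *Nanos3* and *Dnd1* are also expressed in spermatogonia, so neither pair marks PGCs alone.

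The 49 STRT-seq libraries held 10833720 to 34609591 UMIs from 32 to 96 cells each, and the 13 scTrio-seq2 samples 3888311 to 10723044 UMIs from 46 to 93 cells. Cell classes were the authors' own, built on the same transcriptomes that are compared here: spermatogonial clusters (SSC1-4) followed by RPG1, RPG2, RPG3 and RPG4, which together form the successful branch, and fibroblast-like, early-pluripotency, meiotic and neural clusters outside it. UMIs were summed over the cells of a class within a library where it had at least 5 cells, and a level is given as TMM-scaled CPM per such sum, the UMIs of a gene as a share of all UMIs. Fold changes are log2 values with their standard error from edgeR's quasi-likelihood test, with Benjamini-Hochberg adjusted p-values over all genes tested. A gene was called changed at an adjusted p under 0.05 and a natural-log change of at least 0.5. Nothing in the labels ties the libraries to separate animals, so the p-values measure the spread between these libraries only. The summed level of 9 SSC markers spanned 1467 to 2597 CPM over the SSC1-4 sums, 430 to 542 CPM over the RPG2 sums and 330 to 699 CPM over the RPG3 sums. For 7 pluripotency markers the ranges were 58.1 to 289, 1927 to 2549 and 2131 to 2973 CPM in that order. Colonies were picked by eye before the cells were taken, so shares of cells per class are not given.

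The sequences shown first are those that touch these genes in the study or in the reference: the guides designed against *Prdm14*, and the promoter of *Nanos3*, the member that was called in the most comparisons below. *Prdm14* (ENSMUSG00000042414) lies on the minus strand at chr1:13113457-13127163 of GRCm38 in the GENCODE M21 annotation. The study designed CasRx guides, which direct an RNA-cutting enzyme to the transcript, and their spacers match the plus strand in exon 8, the one for guide 1 at chr1:13114321-13114343 within the coding sequence and the one for guide 2 at chr1:13113907-13113929 outside it. They are written in lower case throughout, with no part marked.
Prdm14-gRNA-1: ccacaaatatcgcaggagctacg
Prdm14-gRNA-2: tatccgtaaatacagccccagag
*Nanos3* (ENSMUSG00000056155) lies on the minus strand at chr8:84173731-84185217, and the genes *Mir181c* and *Mir181d* lie within its span on the same strand. Its RefSeq promoter, 250 bases before to 50 after the start, is chr8:84176503-84176802 of GRCm38.p6 on the minus strand, and the capitals mark matches, on either strand, to a TFAP2 motif (GCCNNNGGC) and to the core of a PRDM1 motif (GAAAGT).
Nanos3 promoter: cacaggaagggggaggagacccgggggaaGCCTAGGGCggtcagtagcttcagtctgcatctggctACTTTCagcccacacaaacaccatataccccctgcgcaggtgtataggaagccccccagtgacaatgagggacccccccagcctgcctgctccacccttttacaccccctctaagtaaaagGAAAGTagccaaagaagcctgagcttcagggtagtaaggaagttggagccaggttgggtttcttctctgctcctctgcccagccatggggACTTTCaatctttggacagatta
The TFAP2 letters stood at bases 30 to 38 of this window, and the PRDM1 core occurred 3 times, at bases 67, 188 and 278. The TFAP2 letters occur in 16.6% of 32851 mouse promoters of this length, the PRDM1 core in 14.3%, and 3 or more copies of that core in 0.128%. A PRDM14 motif (GGTCTCTAA), which 0.256% of the promoters hold, did not occur in it. In the promoter windows of *Prdm1* (chr10:44458699-44458998, minus strand) and *Cbfa2t2* (chr2:154436234-154436533, plus strand) none of these letters occurred. A match describes letters only, and no binding was measured here.

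The first question was where along the reprogramming route these genes were on. In SSC1-4 the RNA-binding pair was high and the PGC transcription factors were low or absent. Over 36 libraries *Nanos3* was 193 ± 64.1 CPM (SD, 93.5 to 373) and *Dnd1*, which blocks microRNA access and destabilises transcripts, was 204 ± 40.0 CPM (138 to 305). *Cbfa2t2* was 63.0 ± 19.7 CPM (15.1 to 149) and *Tfap2c* 22.8 ± 14.1 CPM (0 to 60.9). *Prdm1* was 3.87 ± 2.52 CPM (0 to 9.48), and *Prdm14* had no UMI in 28 of the 36 libraries and at most 1.32 CPM in the others. By day, the mean of *Nanos3* in SSC1-4 was 210.3 CPM at day 0 and 114 at day 10 (1 library each), 373 at day 12 (2 libraries), 226 ± 39.1 at day 14 (6), 215 ± 31.7 at day 16 (5), 196 ± 59.8 at day 18 (5), 142 ± 19.1 at day 20 (7), 157 ± 33.7 at day 23 (6) and 177 ± 40.3 at day 27 (3). The means were thus lower at each day from day 12 to day 20 and higher again at days 23 and 27, while *Dnd1* stayed between 177 and 236 CPM at every day. The days were not tested against each other. Every SSC1-4 library thus carried *Nanos3*, *Dnd1* and *Cbfa2t2*, and most lacked *Prdm14* altogether.

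**Figure D1:**
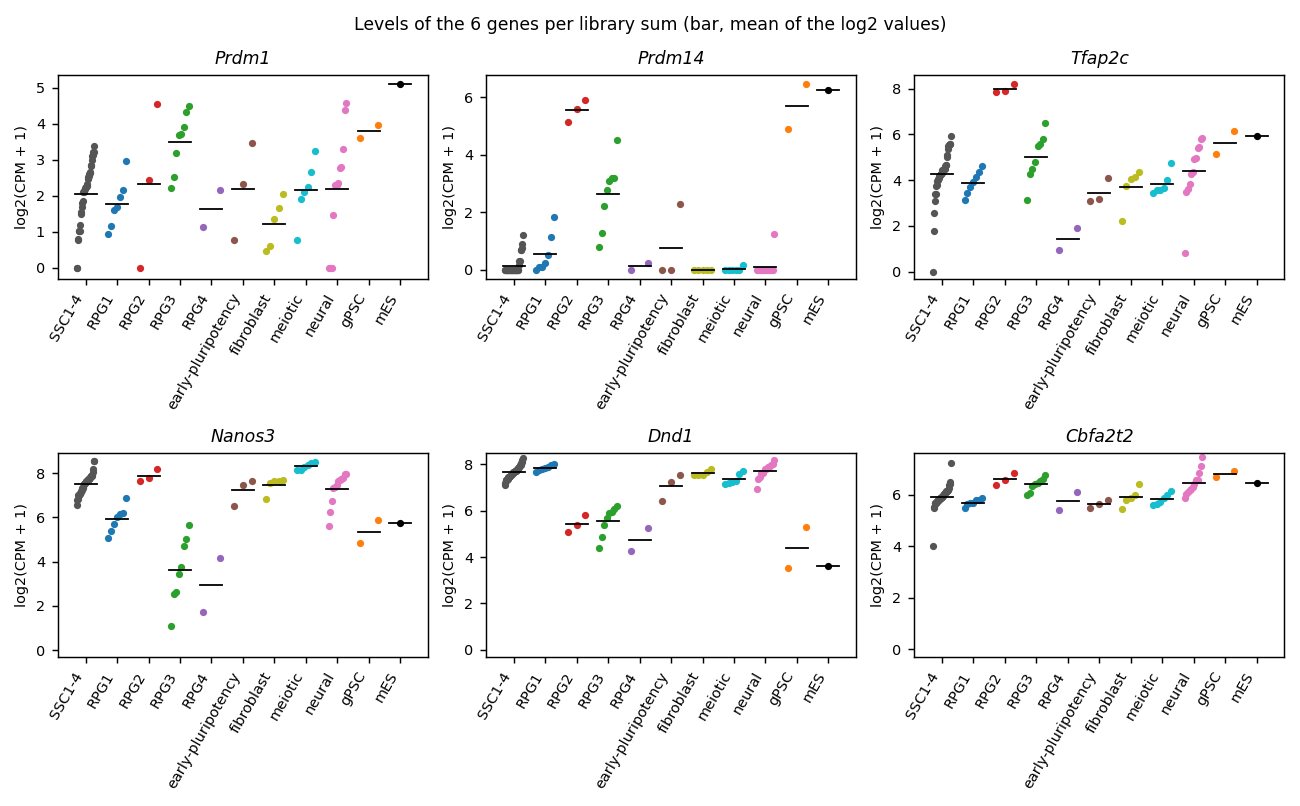
Level of each of the 6 genes, as log2(CPM + 1), in every library sum of each cell class, with a bar at the mean of the log2 values. Among the classes from SSC cultures, *Prdm14* and *Tfap2c* stand highest in the 3 RPG2 sums (34.7 to 59.3 and 227 to 295 CPM), with *Prdm14* higher still in passage 15 gPSCs and mES cells, while *Dnd1* is lower in RPG2, RPG3 and RPG4 than in SSC1-4 and *Nanos3* is lower in RPG1, RPG3 and RPG4.

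*Prdm14*, which encodes a zinc finger factor of both PGCs and naive pluripotent cells, had the largest fitted change of the 6 in RPG2 and in RPG3. Its level in the 3 RPG2 sums was 59.3 CPM at day 12 (replicate 2), 47.5 at day 14 (replicate 5) and 34.7 at day 14 (replicate 6), from 8, 15 and 21 cells. In the 8 RPG3 sums it ran from 0.72 to 22.2 CPM with a median of 6.73, and in the 2 RPG4 sums, both at day 20, it was 0 in replicate 1 and 0.19 in replicate 2. All RPG2 sums lay above all RPG3 sums, and RPG4 held 1 *Prdm14* UMI in all. Against SSC1-4, *Prdm14* rose by 8.20 ± 0.75 in RPG2 (adjusted p = 5.6e-13) and by 5.45 ± 0.74 in RPG3 (adjusted p = 7.0e-09) on the log2 scale. These fitted sizes rest on a denominator near 0 and are better read as levels. All comparisons with SSC1-4 share those 36 sums.

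*Tfap2c* (ENSMUSG00000028640, chr2:172549593-172558622, plus strand), which encodes the AP-2γ factor that acts with PRDM1, was also highest in RPG2 among the classes of the branch. It was 227, 295 and 235 CPM in the 3 RPG2 sums in the same order, and 7.77 to 90.2 CPM with a median of 35.8 in RPG3. In RPG4 it was 2.77 and 0.96 CPM. RPG2 lay above every SSC1-4 sum, RPG3 overlapped SSC1-4, and both RPG4 sums lay low in the SSC1-4 range. *Tfap2c* rose by 3.54 ± 0.34 in RPG2 (adjusted p = 1.5e-12) and by 0.76 ± 0.32 in RPG3 (adjusted p = 0.034), and it fell by 3.73 ± 0.92 in RPG4 (adjusted p = 0.0012). With library as a block, which rests on the few libraries that held both classes, the RPG3 difference was 1.12 with an adjusted p of 0.11, and it was 0.46 with an adjusted p of 0.24 without day 23 replicate 2. The RPG4 difference was -3.06 (adjusted p = 0.075) without day 20 replicate 2.

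*Prdm1* (ENSMUSG00000038151, chr10:44437177-44528501, minus strand), which encodes BLIMP1, the repressor that starts the PGC programme, did not follow the other factors. It was 4.46, 22.3 and 0 CPM in the 3 RPG2 sums, so that these libraries spanned more than the whole SSC1-4 range and their mean says little. In RPG3 it ran from 3.61 to 21.3 CPM with a median of 11.9, and in RPG4 it was 1.19 and 3.44 CPM. The RPG2 difference from SSC1-4, 1.27 ± 0.66, did not pass (adjusted p = 0.11), although it did with a batch term (2.24, adjusted p = 0.026) and without day 14 replicate 6 (1.73, adjusted p = 0.039), and all RPG2 sums came from batch B2 of the authors' cell annotation. In RPG3 *Prdm1* rose by 1.58 ± 0.37 (adjusted p = 2.2e-04), but within libraries that held both classes the sign turned, to -0.49 with an adjusted p of 0.82. The RPG4 difference of -0.70 did not pass (adjusted p = 0.54).

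*Cbfa2t2* (ENSMUSG00000038533, chr2:154436481-154539356, plus strand), the co-repressor of PRDM14, differed little between classes. It was 115, 94.8 and 81.9 CPM in RPG2, 62.2 to 108 in RPG3 with a median of 86.3, and 41.1 and 67.5 in RPG4. All these sums lay within the SSC1-4 range. It passed in RPG2 by a small margin (0.75 ± 0.22, adjusted p = 0.0053), while the RPG3 difference of 0.46 ± 0.15 (adjusted p = 0.0067) stayed under the fold limit and the RPG4 difference of -0.16 did not pass (adjusted p = 0.69). The RPG2 call was lost with DESeq2 (0.67) and in most other settings tried, since the value then lay under the fold limit. It was also lost within shared libraries (0.83, adjusted p = 0.089), with a batch term (0.58, adjusted p = 0.086), and without day 12 replicate 2 (0.51, adjusted p = 0.15) or day 14 replicate 5 (0.65, adjusted p = 0.061).

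*Nanos3* and *Dnd1* parted ways along the route. *Nanos3* was 198, 295 and 221 CPM in the RPG2 sums, the same range as in SSC1-4. In RPG3 it ran from 1.15 to 48.7 CPM with a median of 11.4, and in RPG4 it was 17.01 and 2.296 CPM, so every sum of these classes lay below every SSC1-4 sum. The RPG2 difference was 0.42 ± 0.24 (adjusted p = 0.14), with a fall by 3.63 ± 0.33 in RPG3 (adjusted p = 5.8e-14) and by 4.45 ± 0.52 in RPG4 (adjusted p = 1.6e-09). *Dnd1* had already fallen in RPG2, where it was 55.1, 33.04 and 41.2 CPM. It was 19.8 to 73.0 CPM with a median of 54.4 in RPG3, and 37.2 and 18.2 in RPG4, and again no sum reached the SSC1-4 range. Its fall was 2.13 ± 0.21 in RPG2 (adjusted p = 2.7e-12), 2.01 ± 0.15 in RPG3 (adjusted p = 6.0e-17) and 2.88 ± 0.28 in RPG4 (adjusted p = 4.7e-12). *Dnd1* (ENSMUSG00000044595, chr18:36763671-36766214, minus strand) overlaps *Wdr55* on the opposite strand, and whether reads were counted by strand is not given in the sources used here. The mean level of *Wdr55* was 84.8 CPM in SSC1-4 and 66.6 in RPG2.

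In counts over the members, 4 of the 6 were called in RPG2 against SSC1-4, where 37.8% of the 17985 genes tested were called. In RPG3 against SSC1-4 it was 5 of 6, with 49.2% of 16392 genes called, and in RPG4 against SSC1-4 it was 3 of 6, with 30% of 18790 genes called. These classes differed from SSC1-4 in a large part of the transcriptome, and the numbers of members called are to be read against that. The median change over all genes was -0.27 in RPG2, -0.15 in RPG3 and -0.42 in RPG4.

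RPG1, the class that follows SSC1-4 in the branch, differed from SSC1-4 in 1 member, where 3.86% of 16472 genes were called. *Nanos3* was 63.8 ± 27.6 CPM over 7 sums (32.4 to 116) and fell by 1.601 ± 0.21 (adjusted p = 8.5e-07), while the RPG2 sums stood at 198 to 295 CPM. Within libraries that held both classes the difference was -0.96 and did not pass (adjusted p = 0.28), while 4 genes in all were called in that fit. *Dnd1* was 230 ± 19.7 CPM in RPG1, and its difference of 0.17 did not pass (adjusted p = 0.41). *Prdm14* averaged 0.65 CPM with a highest sum of 2.60, too few counts for the filter, so it was not tested there. SSC markers in RPG1 summed to 1682 to 2033 CPM and pluripotency markers to 216 to 517.

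In RPG3 against RPG2, 3 of the 6 were called, all lower in RPG3, where 4.2% of 13611 genes were called in either direction and 1.8% lower. *Nanos3* fell by 3.90 ± 0.61 (adjusted p = 0.0014), *Tfap2c* by 2.72 ± 0.41 (adjusted p = 0.0011) and *Prdm14* by 2.72 ± 0.62 (adjusted p = 0.017). *Dnd1* (0.18 ± 0.38, adjusted p = 0.86), *Cbfa2t2* (-0.22 ± 0.23, adjusted p = 0.67) and *Prdm1* (0.37 ± 0.92, adjusted p = 0.88) did not pass. The RPG2 sums came from days 12 and 14. Of the RPG3 sums, only that of day 12 replicate 2 was as early, and the others came from days 18, 20 and 23. Class and day can thus hardly be told apart outside that library. All RPG2 sums came from batch B2 of the authors' cell annotation, and 5 of the 8 RPG3 sums from B1. Within B2 the falls were 3.72 ± 0.40 for *Tfap2c* (adjusted p = 0.0057), 3.67 ± 0.69 for *Nanos3* (adjusted p = 0.039) and 3.16 ± 0.73 for *Prdm14* (adjusted p = 0.084), and 44 genes were called in that smaller fit. *Prdm14* also missed without day 14 replicate 5 (-2.72, adjusted p = 0.056).

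**Figure D2:**
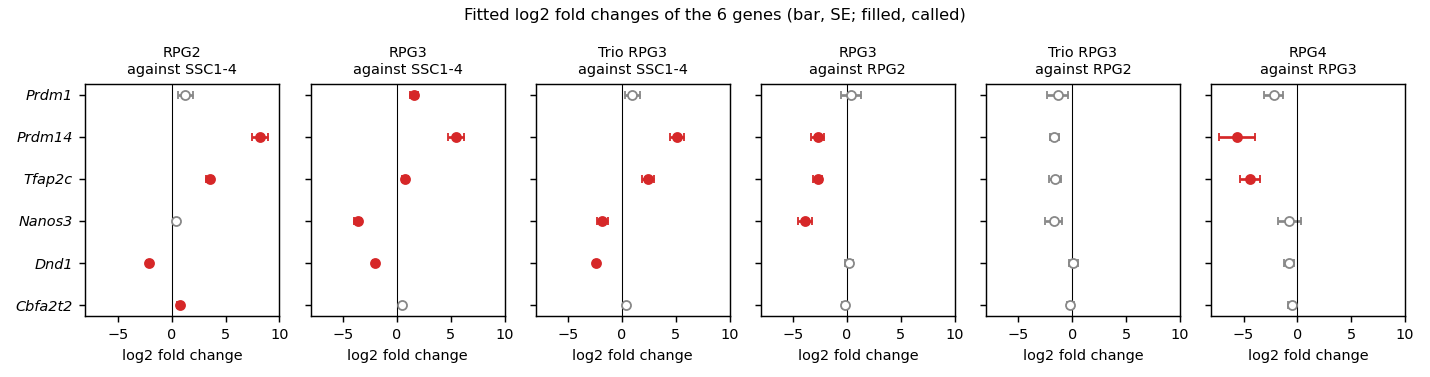
Fitted log2 fold change of each of the 6 genes in 6 comparisons, those marked Trio from scTrio-seq2, with bars of 1 standard error and filled points for calls. *Prdm14*, *Tfap2c* and *Nanos3* are the members called in RPG3 against RPG2 by STRT-seq, and the *Prdm14* value in RPG4 against RPG3 rests on 1 UMI in RPG4.

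The library of day 12 replicate 2 was the only one with 5 or more cells of both classes, so it gives the contrast inside 1 library. *Prdm14* was 59.3 CPM in its RPG2 cells and 1.41 in its RPG3 cells, and *Tfap2c* was 227 and 7.77 CPM. *Nanos3* was 198 CPM in RPG2 and 48.7 in RPG3, the highest of the RPG3 sums. *Otx2*, an epiblast factor that keeps cells from entering the PGC fate, ran the other way, with 6.96 CPM in RPG2 and 146 in RPG3. The direction was that of the comparison over all libraries for each of these genes, with no replicate check.

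From RPG3 to RPG4, 2 of the members were called, both lower, where 8.47% of 14600 genes were called and 4.84% were called lower. *Tfap2c* fell by 4.38 ± 0.92 (adjusted p = 0.0057). *Prdm14* had 1 UMI of 7484721 in RPG4 against 531 of 76287874 in RPG3, a pooled ratio of 52.1 for RPG3 over RPG4 with a 95% counting interval of 9.31 to 2062, and an adjusted p of 0.040 across the sums. *Prdm1* (-2.18 ± 0.88, adjusted p = 0.13), *Nanos3* (-0.73, adjusted p = 0.70), *Dnd1* (-0.76, adjusted p = 0.33) and *Cbfa2t2* (-0.54, adjusted p = 0.27) did not pass with edgeR. *Prdm1* was called by DESeq2 (-2.12, adjusted p = 0.046) and *Dnd1* with all classes in 1 fit (-0.88, adjusted p = 0.036). Both RPG4 sums came from day 20, and without replicate 2 of that day neither gene passed (*Tfap2c* -3.61, adjusted p = 0.16, and *Prdm14* with an adjusted p of 0.22). The *Prdm14* call was also lost without day 20 replicate 1 (adjusted p = 0.24), within shared libraries (adjusted p = 0.17), and without any of day 18 replicates 3 and 5 or day 23 replicates 1 and 2 (adjusted p = 0.057 to 0.067).

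Of the 4 classes outside the branch, meiotic cells were the one with a member called against SSC1-4. *Nanos3* averaged 157 to 320 CPM and *Dnd1* 139 to 213 CPM over these classes, and each class mean lay above every RPG3 sum. Single clusters within the classes stood lower. In Neural 3 (61 cells) *Nanos3* was 12.9 and 22.2 CPM in the 2 sums and *Dnd1* 17.3 and 20.3 CPM, within the RPG3 range for *Nanos3* and around its lower end for *Dnd1*, and *Tfap2c* averaged 1.504 CPM. Fibroblast 2 (34 cells in 3 sums) averaged 86.3 ± 96.8 CPM of *Nanos3* and 84.0 ± 93.1 of *Dnd1*, with lowest sums of 7.80 and 11.4 CPM. *Nanos3* was 80.1 ± 15.6 CPM in Neural 2 (n = 2), and *Dnd1* was 84.0 CPM in the 1 sum of Early-pluripotency 2. Clusters were not tested one by one. No member was called in fibroblast-like cells (4.71% of genes called), in early-pluripotency cells (2.18%) or in neural cells (4.46%) by edgeR or DESeq2, with 2, 3 and 1 members at an unadjusted p under 0.05, and 1 was called in meiotic cells (1.44%). That 1 was *Nanos3*, at 320 ± 32.9 CPM over 6 meiotic sums (284 to 362), higher by 0.73 ± 0.16 (adjusted p = 0.0077), at the edge of the fold limit. It did not pass within shared libraries (0.52, adjusted p = 0.28) or without day 16 replicate 3, 4 or 6 (0.68 to 0.71). *Prdm14* had no UMI in the fibroblast sums. In early-pluripotency cells it was seen in the sum of day 12 replicate 2 at 3.92 CPM, the library that also held RPG2 cells, and its difference of 3.04 ± 1.28 did not pass (adjusted p = 0.20). *Dnd1* in those cells was lower by 0.57 ± 0.18 without passing (adjusted p = 0.084), and passed at -0.81 (adjusted p = 0.046) without day 18 replicate 4. *Cbfa2t2* in neural cells, at 93.1 ± 34.6 CPM over 12 sums, was higher by 0.58 ± 0.14 (adjusted p = 0.0051), under the fold limit.

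The pluripotent end points were 1 library each and were not tested. Passage 1 gPSCs had 28.9 CPM of *Prdm14*, passage 15 gPSCs 87.7 and mES cells 75.1, where the RPG2 sums stood at 34.7 to 59.3. As plain CPM without TMM the exact Poisson 95% intervals were 22.5 to 27.8, 79.7 to 90.8 and 64.7 to 73.2, which cover counting error only, and they do not overlap. *Tfap2c* was 34.5, 69.5 and 59.8 CPM in the same order, and *Nanos3* was 27.7, 57.8 and 53.3 CPM, so both lay below all 3 RPG2 sums. *Dnd1* was 38.1, 10.6 and 11.1 CPM, with passage 15 gPSCs and mES cells below every RPG2 and RPG3 sum. *Prdm1* was 14.6, 11.1 and 33.4 CPM, and *Cbfa2t2* was 101.7, 122 and 88.1 CPM.

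At the level of single cells, each cell was thinned to 100000 UMIs so that depth was equal, and shallower cells (3 of 47 in RPG2, 18 of 261 in RPG3) were left out. *Prdm14* had at least 1 UMI in 24 of 44 RPG2 cells (54.5%, Clopper-Pearson 95% interval 38.8 to 69.6) and in 56 of 243 RPG3 cells (23.05%, 17.9 to 28.9). It was found in 0 of 32 RPG4 cells, which by a rule of 3 counts allows a share of cells with a UMI of up to 9.38%, and in 42 of 42 mES cells. Unthinned, the shares were 61.7% in RPG2 and 32.2% in RPG3. The background share was 0.41% (7 of 1725, 0.16 to 0.83) in SSC1-4 cells of libraries without RPG2, RPG3 or RPG4 cells. In SSC1-4 cells of libraries that did hold such cells it was 5.81% (9 of 155), a measured difference whose source was not tested. The second of the early-pluripotency clusters had 13.5% (10 of 74) and the first had 0 of 116 cells. Median depths before thinning were 341308 UMIs in RPG2, 285699 in RPG3 and 248474 in SSC1-4 cells.

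*Tfap2c* was found in 97.7% of RPG2, 49.4% of RPG3, 6.25% of RPG4 and 50.8% of SSC1-4 cells, and *Nanos3* in 97.7%, 46.1%, 34.4% and 97.6%. *Prdm1* was found in 11.4% of RPG2 and 30.04% of RPG3 cells against 14.1% in SSC1-4, so at this depth most RPG2 cells showed *Prdm14* or *Tfap2c* without *Prdm1*. *Dnd1* stayed in 77.3% of RPG2 and 84.4% of RPG3 cells, and *Cbfa2t2* in 88.6% and 93.0%. Among PGC factors it was thus *Prdm14* and *Prdm1* whose transcripts were missing from many RPG2 cells, and a missing UMI is not evidence of a silent gene.

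**Figure D3:**
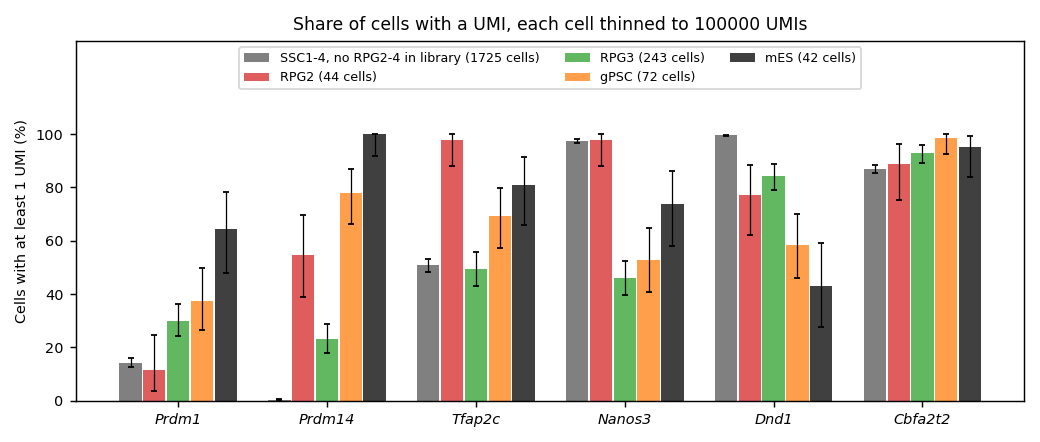
Share of cells with at least 1 UMI of each gene after thinning to 100000 UMIs per cell, in SSC1-4 cells of libraries without RPG2, RPG3 or RPG4 cells and in RPG2, RPG3, gPSC and mES cells, with exact 95% binomial intervals. *Prdm14* was found in 0.41% of these SSC1-4 cells, 54.5% of RPG2 and 23.05% of RPG3 cells, while *Cbfa2t2* stayed between 87.0% and 98.6% in all 5 sets.

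Since *Tfap2c* and *Nanos3* were each found in 97.7% of RPG2 cells, pairs with either of them could hardly depart from the product of the separate shares. Every one of the 24 *Prdm14* cells also had *Tfap2c* (54.5% of cells, where the product of the separate shares gives 53.3%), and 19 cells had *Tfap2c* alone of the pair. *Tfap2c* and *Nanos3* were found together in 42 of 44 cells (95.5%, product 95.5%). *Prdm1* and *Prdm14* met in 4 cells (9.09%, product 6.198%), and the same 4 cells held the triple with *Tfap2c* (9.09%, product 6.06%). All 6 members were found in 4 RPG2 cells and 5 members in 17, and no RPG2 cell had fewer than 2.

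RPG3 cells were more mixed. *Prdm14* and *Tfap2c* were found together in 37 of 243 cells (15.2%, 10.95 to 20.4), where the product gives 11.4%, and 19 cells had *Prdm14* without *Tfap2c*. *Tfap2c* with *Nanos3* was found in 66 cells (27.2%, 21.7 to 33.2; product 22.8%). *Prdm1*, *Prdm14* and *Tfap2c* were found together in 18 cells (7.41%, 4.45 to 11.5), above the product of 3.42%. All 6 members were found in 10 RPG3 cells, 2 RPG3 cells had none, and among 1725 SSC1-4 cells 2 had all 6. Cells were pooled over libraries whose levels differ, which can move the share of pairs away from the product and was not tested, so these values describe the cells and carry no test.

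**Figure D4:**
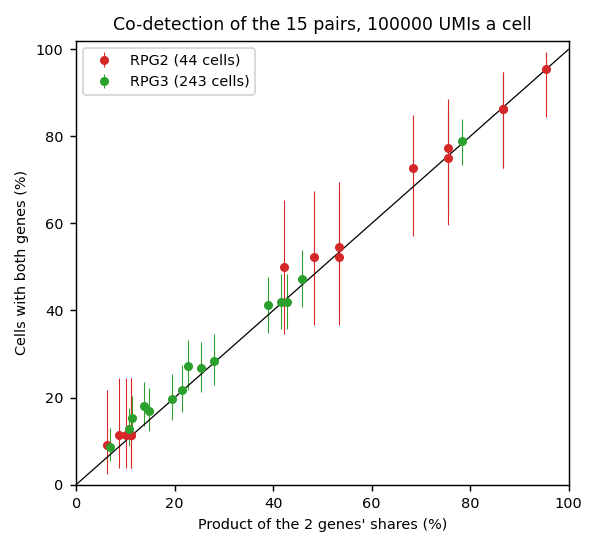
Share of cells in which both genes of a pair were found against the product of their separate shares, for the 15 pairs in RPG2 and in RPG3 after thinning. Bars are exact 95% binomial intervals, and the line marks equality, with *Prdm14* and *Tfap2c* at 54.5% against 53.3% in RPG2 and 15.2% against 11.4% in RPG3.

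The scTrio-seq2 samples gave a second set of cells in the same classes, which the authors had assigned from the first set. In the 5C samples with RPG2 cells (day 12 replicates 1 and 7 and day 16 replicate 8, with 11, 7 and 5 cells), *Prdm14* was 66.3, 51.4 and 63.1 CPM, *Tfap2c* 286, 191 and 242, and *Nanos3* 122, 239 and 126. The only DMSO sample with RPG2 cells (day 20 replicate 2, 5 cells) had 36.4 CPM of *Prdm14*, 130 of *Tfap2c* and 5.20 of *Nanos3*, which is 1 UMI, together with 271 CPM of *Otx2*. In RPG3 sums of 5C samples *Prdm14* ran from 10.9 to 28.4 CPM and *Tfap2c* from 10.7 to 206. RPG3 sums of DMSO samples had 9.74 and 20.0 CPM of *Prdm14*, and 27.8 and 39.7 of *Tfap2c*. *Prdm14* thus lay higher in every RPG2 sum than in any RPG3 sum here, and *Tfap2c* overlapped. Since the classes were assigned by likeness to the STRT-seq classes, this is no independent check.

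RPG3 against SSC1-4 in these samples called 4 of the 6 members, with 44.5% of genes called. *Prdm14* had no UMI in SSC1-4 cells of the 3 DMSO samples with such a sum and 20 UMIs in those of the 8 with 5C. It rose in RPG3 by 5.08 ± 0.65 (adjusted p = 3.7e-07) and *Tfap2c* by 2.397 ± 0.58 (adjusted p = 0.0010), while *Nanos3* fell by 1.81 ± 0.50 (adjusted p = 0.0035) and *Dnd1* fell by 2.405 ± 0.22 (adjusted p = 1.7e-09). These values pool samples of both treatments, which differed. *Tfap2c* was 85.5 ± 81.8 CPM in RPG3 (n = 6) against 7.36 ± 6.54 in SSC1-4 cells (n = 8) with 5C, and 33.8 ± 8.38 (n = 2) against 29.2 ± 6.01 (n = 3) with DMSO. The sums overlapped within each treatment, and whether the difference itself differed between treatments was not tested. *Nanos3* was 52.8 ± 24.9 against 110 ± 44.3 CPM with 5C, and 1.11 ± 0.79 against 195 ± 68.6 with DMSO. *Prdm14* and *Dnd1* differed in the same direction, without overlap, within each treatment. The fit was not run for each treatment alone. *Prdm1* (0.96 ± 0.68, adjusted p = 0.24) and *Cbfa2t2* (0.35 ± 0.17, adjusted p = 0.090) did not pass. RPG3 against RPG2 called 0 of the 6 by edgeR at 8 against 4 sums, with 0.074% of 9460 genes called and 3 members at an unadjusted p under 0.05. The differences there were -1.66 ± 0.42 for *Prdm14* (adjusted p = 0.15), -1.59 ± 0.57 for *Tfap2c* (adjusted p = 0.40) and -1.72 ± 0.77 for *Nanos3* (adjusted p = 0.53). DESeq2 called *Prdm14* in that contrast (-1.74, adjusted p = 0.0057) and no other member. The edgeR fit with sample as a block used the 4 samples that held both classes. It gave -1.47 for *Prdm14* (adjusted p = 0.60), -0.95 for *Tfap2c* (adjusted p = 0.28) and -1.50 for *Nanos3* (adjusted p = 0.15).

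**Figure D5:**
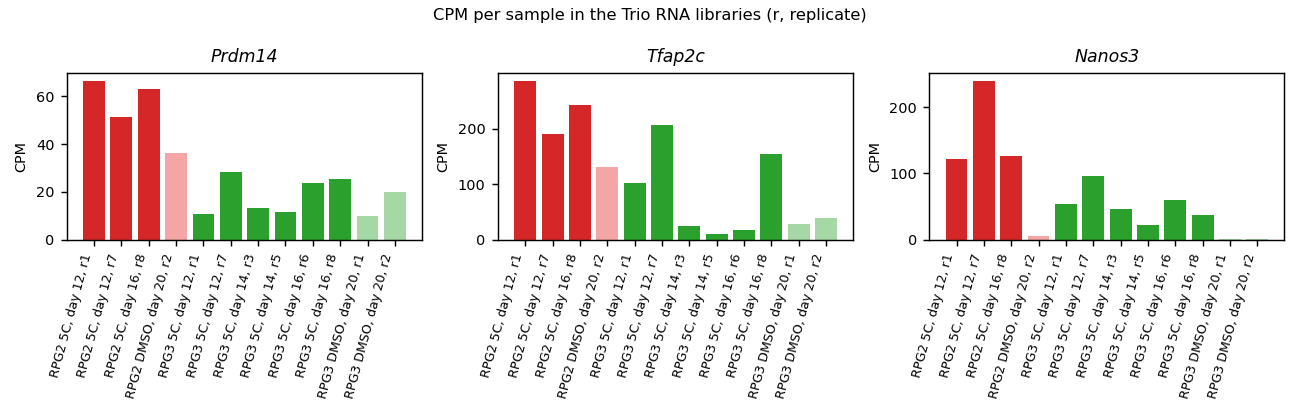
Level in CPM of *Prdm14*, *Tfap2c* and *Nanos3*, as 1 bar for each scTrio-seq2 sample with at least 5 RPG2 cells (red) or RPG3 cells (green), dark for 5C and light for DMSO. *Nanos3* in RPG3 cells is 21.9 to 95.3 CPM in the 6 samples with 5C and 0.55 and 1.67 in the 2 with DMSO, while *Prdm14* in every RPG2 bar (36.4 to 66.3) is above every RPG3 bar (9.74 to 28.4).

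Within RPG3, 5C against DMSO called 1 of the 6, where 13.4% of 11390 genes were called. *Nanos3* was 54.3, 95.3, 46.9, 21.9, 60.5 and 37.6 CPM in the 5C samples (day 12 replicates 1 and 7, day 14 replicates 3 and 5, day 16 replicates 6 and 8) and 1.67 and 0.55 CPM in the DMSO samples (day 20 replicates 1 and 2). As raw counts this was 606 UMIs in 145 cells against 8 UMIs in 140 cells, and the groups did not overlap. The difference was 5.51 ± 0.73 (adjusted p = 1.2e-04). The DMSO arm held 2 sums, so leaving out either leaves 1 sample, which is then assumed to vary like the 5C sums. After thinning, 87.1% of 70 5C cells (76.99 to 93.9) and 7.14% of 28 DMSO cells (0.88 to 23.5) had a *Nanos3* UMI, and unthinned it was 116 of 145 and 8 of 140 cells. For *Prdm14* it was 21 of 70 and 13 of 28 thinned cells. *Tfap2c* (1.35 ± 0.84, adjusted p = 0.31), *Dnd1* (0.80 ± 0.45, adjusted p = 0.26), *Prdm14* (0.33 ± 0.58, adjusted p = 0.76), *Prdm1* (-0.86, adjusted p = 0.69) and *Cbfa2t2* (-0.11, adjusted p = 0.86) did not pass. All 5C sums came from days 12 to 16 and both DMSO sums from day 20, so treatment and day cannot be told apart.

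Other genes differed between the same sums. The 9 SSC markers summed to 508 to 842 CPM in RPG3 cells of 5C samples and 421 to 441 in those of DMSO samples, with none at 0, against 2179 to 2713 in SSC1-4 cells with 5C. The 14 later germ cell genes summed to 319 to 693 and 231 to 270 CPM, and the pluripotency markers to 2558 to 3413 and 4958 to 5158. Of the SSC markers tested, 4 of 8 were called higher with 5C, as were 4 of 12 later germ cell genes. The lists share *Dazl* and *Ddx4*. Over all genes, 705 of 11390 were called higher with 5C and 825 lower, 13.4% in either direction. *Otx2* was 11.99 to 91.8 CPM with 5C against 308 and 373 with DMSO. The part of residual SSC transcripts in the *Nanos3* difference was not tested. In RPG1 cells *Nanos3* was 79.9 ± 8.04 CPM with DMSO (n = 2) and 88.1 ± 28.4 with 5C (n = 4). The untreated STRT-seq cultures, on their own scale, had 48.7 CPM of *Nanos3* in RPG3 at day 12, 4.81 and 10.0 at day 18, 1.15 to 24.9 at day 20 and 12.7 and 31.1 at day 23.

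The genes that act with the 6 were read from lists chosen by role. Early PGC genes rose in RPG2 against SSC1-4, 12 up and 0 down of 16 tested, with a median of 3.14, where 37.8% of all genes were called in either direction. They included the pluripotency factors *Nanog* (7.31 ± 0.57) and *Klf2* (6.02 ± 0.41) and the homeobox gene *Rhox5* (6.45 ± 0.51). From RPG2 to RPG3, where 4.2% of all genes were called, 0 rose and 3 of 14 fell, namely *Kit*, the receptor that guides PGC survival (-2.07), the PGC surface enzyme *Alpl* (-1.27) and *Dppa3*, which protects methylation marks (-1.11). None of the 3 was called within batch B2 or with sums per batch and day, and without day 14 replicate 5 neither *Kit* nor *Alpl* was, *Alpl* also not without day 14 replicate 6. *Dppa3* averaged 665 CPM over the RPG2 sums against 98.2 CPM over SSC1-4, then 314 CPM in RPG3 cells and 5.72 CPM in RPG4 cells.

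In the list of inducers of the PGC fate, BMP and WNT, 3 of 20 rose and 4 fell in RPG2 against SSC1-4, with a median of -0.84, so the share called was no more than the 37.8% of all genes. The ligand *Bmp4* rose by 5.90, the BMP target *Id3* by 1.68 and the signal mediator *Smad4* by 1.39, while the targets *Msx1* and *Msx2* fell by 3.82 and 2.85. *Bmp8b*, a ligand from the same pathway, was 0.15 ± 0.14 CPM in RPG2 (n = 3) against 6.52 ± 5.12 CPM in SSC1-4 (n = 36). *Smad4* was not called without day 12 replicate 2, nor *Msx1* without day 14 replicate 6. From RPG2 to RPG3, beside 4.2% of all genes, 0 rose and 1 of 16 fell, *Id3* (-1.11), which was not called without day 14 replicate 5 or 6, within B2, with a batch term or with sums per batch and day.

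The chromatin partners of PRDM14 and CBFA2T2 rose in 6 and fell in 1 of 14 in RPG2 against SSC1-4, with a median of 0.87, where 37.8% of all genes were called in either direction and the median of all genes was -0.27. The Polycomb subunits *Suz12* (1.81) and *Ezh2* (1.57) and the co-repressor *Ncor1* (1.63) were the largest, and the paralogue *Cbfa2t3* was 0.062 ± 0.11 CPM in RPG2 (n = 3) against 2.42 ± 4.11 in SSC1-4 (n = 36), a call lost without day 12 replicate 2 or day 14 replicate 5. Of the partners of PRDM1, 2 of 5 rose and 0 fell (median 0.31), a share close to that of all genes, *Kdm1a*, a histone demethylase (0.91), and *Prmt5*, an arginine methyltransferase (0.76). *Kdm1a* was not called without day 14 replicate 6, and *Prmt5* lay just past the fold limit and under it without any of the 3 RPG2 sums. From RPG2 to RPG3 edgeR called 0 of 13 and 0 of 5 of these lists, with 2 and 0 at an unadjusted p under 0.05. The genes of DNA methylation, whose erasure belongs to the PGC programme, rose in 5 and fell in 1 of 9 (median 1.33), with the oxidases *Tet1* (5.48) and *Tet2* (4.99) and the cofactor *Dnmt3l* (2.98) up and *Tet3* down (-3.45). In RPG3 against RPG2, beside 4.2% of all genes, 3 of 9 rose and 0 fell, and these were the de novo methylation genes *Dnmt3l* (2.42), *Dnmt3a* (1.95) and *Dnmt3b* (1.13). *Dnmt3a* kept its call in all settings tried, while neither of the others was called within B2 or without day 12 replicate 2, *Dnmt3b* also not without day 14 replicate 5, and *Dnmt3l* also not without day 20 replicate 2 or, against SSC1-4, without day 14 replicate 6.

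The CCR4-NOT and Pumilio list, through which NANOS3 and DND1 act, had 5 up and 1 down of 12 in RPG2 against SSC1-4 (median 0.22, beside 37.8% of all genes called), led by *Pum2* (1.38), *Cnot11* (0.93) and *Cnot1* (0.90), with *Cnot6l* down (-1.24), and edgeR called 0 of 12 in RPG3 against RPG2, with 3 at an unadjusted p under 0.05. Later germ cell genes fell without exception in RPG2, 14 of 14 (median -3.20), among them the meiotic *Sycp3* (-4.15), the spermatogonial factor *Sohlh1* (-3.85) and the piRNA factor *Piwil4* (-3.75), and edgeR called 0 of 14 from RPG2 to RPG3, with 3 at an unadjusted p under 0.05. *Nanos3*, by contrast, was not called in RPG2 (above). Epiblast genes rose in 4 and fell in 2 of 10 in RPG2 (median 1.41; *Zic2* 5.00, *Fgf5* 4.53, *Foxd3* 3.66, *Sox3* -3.56, *Pou3f1* -0.89). *Fgf5* was not called without day 12 replicate 2, *Pou3f1* without day 14 replicate 5, *Cnot1* without day 12 replicate 2, or *Cnot11* without day 12 replicate 2 or day 14 replicate 6. From RPG2 to RPG3, beside 4.2% of all genes, 2 of 10 rose and 0 fell, *Otx2* and *Fgf15*. The *Otx2* change of 6.73 ± 0.76 rests on a denominator near 0, with no UMI in 2 of the 3 RPG2 sums. *Otx2* averaged 2.32 ± 4.02 CPM in RPG2 (n = 3) and 231 ± 74.2 CPM in RPG3 (n = 8). *Fgf15* averaged 0.19 ± 0.32 CPM in RPG2 (n = 3) and 41.0 ± 20.8 CPM in RPG3 (n = 8). Both kept their calls in all settings tried.

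Of the paralogues of the members, 6 of 14 fell in RPG2 against SSC1-4 (median -1.21), beside 37.8% of all genes called in either direction, among them *Prdm6* (0 CPM in all RPG2 sums and 0.91 ± 1.15 CPM in SSC1-4), *Tfap2a* (0.19 ± 0.32 against 2.77 ± 2.14) and *Prdm11* (0.19 ± 0.32 against 2.39 ± 2.08). The calls of *Tfap2a* and *Prdm11* were lost without either day 14 sum and that of *Prdm6* without any of the 3 RPG2 sums. In RPG3 against RPG2 edgeR called 0 of 11, with 2 at an unadjusted p under 0.05.

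Over the 18 clusters, with 1 value per cluster and 13519 genes compared, the patterns most like each member were read from Pearson's r of log2(CPM + 1), as a description. For *Prdm14* these were *Mep1b* (r = 0.952), *Tspan1* (0.942) and *Fermt3* (0.929), and for *Tfap2c* they were *Atg13* (0.922), *Fads6* (0.911) and *X1110008L16Rik* (0.900). *Dnd1* was closest to *Adck3* (0.973), *Prr19* (0.963) and *Dym* (0.960), and *Nanos3* to *Psme2* (0.923), *Apol7d* (0.918) and *Erlin1* (0.911). *Prdm1* was closest to *Hsph1* (0.853), *Igf2bp1* (0.790) and *Enah* (0.784), and *Cbfa2t2* to *Nfs1* (0.795), *Tcp11* (0.782) and *Pmm1* (0.757). No member was among the 3 closest to another. Between members r was 0.73 for *Tfap2c* and *Cbfa2t2*, 0.71 for *Nanos3* and *Dnd1*, 0.55 for *Prdm14* and *Tfap2c*, and -0.40 for *Prdm14* and *Dnd1*, and the clusters share libraries and differ in depth.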

How the data were processed

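Single cells were sequenced by modified STRT-seq (49 libraries, 4464 cells in the table kept by the authors) and, for RNA, by scTrio-seq2 (13 samples, 1089 cells). Raw UMI counts were deposited for each gene in each cell, made with STAR 2.7.2b and featureCounts 2.0.0 on mm10 per the labels, and an annotation that gives each cell a cluster and, for STRT-seq, a batch (B1 or B2). The deposited annotation also gives the authors' percent of mitochondrial UMIs per cell, which no result here uses. Clusters came from Seurat, and the classes of scTrio-seq2 cells were predicted from the STRT-seq cells. The counting strand is not given in the sources used here. The raw count table served only to repeat the gPSC and mES levels, and the methylation data were not analysed here. No cell profile occurred more than once, so no library was entered with the same counts under another name. A library sequenced or counted again would not show in this check.

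The UMIs of a class were added up within each library that had 5 or more of its cells, and edgeR 4.0.16 (R 4.3.3; TMM, filterByExpr, glmQLFit and glmQLFTest) was fitted on the 2 classes compared. The scTrio-seq2 fits used the 15426 genes present in both tables. Calls needed a Benjamini-Hochberg adjusted p under 0.05 and a natural-log change of at least 0.5 (0.72 on the log2 scale), as in the study's marker rule. The SE is the fold change divided by the square root of F. The fit was tested on simulated counts, where it called 25% of genes changed by 1 log2 unit and 44% of those changed by 2 in RPG2 against SSC1-4, 19% and 45% in RPG3 against RPG2, 4% and 59% in scTrio-seq2 RPG3 against RPG2, and 16% and 60% in 5C against DMSO. Of all genes it called there, 1.43%, 4.48%, 5.97% and 8.43% in the same order had not been changed. For detection, each cell was thinned to 100000 UMIs with Python 3.11.15 and numpy 2.4.6, and exact intervals came from scipy 1.17.1. They cover counting error only. Coordinates came from GENCODE M21 and promoters from RefSeq on GRCm38.p6, where 3 of the 6 members had an entry.

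Named genes were the 6 members, the 3 genes closest to each in pattern over clusters, and up to 3 called genes per direction from each list. Among the paralogues, the calls in the higher direction are not reported here. The members and lists were chosen with earlier results of these data known. Cells of different classes from the same library pair the sums, and fits with library as a block were run over libraries holding both classes. The correlation of paired deviations was 0.04 to 0.23 in STRT-seq and 0.046 to 0.431 in scTrio-seq2. Alternatives were other scaling (relative log expression factors in edgeR), no filter, DESeq2 1.42.0, all classes in 1 fit, at least 10 cells and no fold limit. Others were the block, a batch term, sums per batch and day, other thinning, and each library left out in turn, SSC1-4 libraries excepted.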

Additional observations from a re-analysis of the deposited data

Results flagged for a closer look

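Among 47 groups of 4 to 10 samples, 7 held a sample far from the others in its group, where chance gives about 1 in 20 in independent groups of varying values. For 2 of the 7 all other sums were at 0, so any UMI stands apart, and 3 came from the same sum, so the number cannot be set against that share. *Prdm14* in the RPG3 sum of day 23 replicate 2 was 22.2 CPM, with the next highest of 8 sums at 8.16 CPM. In the meiotic sum of day 16 replicate 4, *Prdm14* was 0.12 CPM where the other 5 were at 0, and *Tfap2c* was 25.7 CPM with the next at 14.9. *Nanos3* in the fibroblast-like sum of day 10 replicate 1 was 112 CPM, against 190 or more in the other 4. The sum of 5C cells without a class in replicate 8 stood apart from the other 3 such sums in 3 genes, with *Prdm14* at 5.00 CPM (others 0), *Tfap2c* at 10.0 (next 1.65) and *Dnd1* at 80.1 (next 169). That replicate also held RPG2 and RPG3 cells by the authors' classes.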

How the results depend on the processing

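*Prdm14*, *Tfap2c* and *Dnd1* in RPG2 against SSC1-4, *Nanos3* and *Dnd1* in RPG3 against SSC1-4, *Nanos3* and *Dnd1* in RPG4 against SSC1-4, *Nanos3* in 5C against DMSO, and *Tfap2c* and *Nanos3* in RPG3 against RPG2 kept their direction and their call under every alternative that could be fitted for them. RPG4 and DMSO held 2 sums each, so leaving out 1 there tests a lone sample, which is assumed to vary like the other group, and is no check of the spread in that arm. Over all members, 611 values under other settings stayed on their side of the call, 25 lost it, 6 gained it and 1 reversed, and with a library left out these were 483, 18 and 2 with none reversed. For the called genes named from the lists, 376 values kept the call and 53 lost it, and with a library left out 165 and 30. With library as a block, the count of members called went from 1 to 0 in RPG1 (*Nanos3* -0.96), from 5 to 2 in RPG3 against SSC1-4 (*Tfap2c* 1.12, *Prdm1* reversed to -0.49, *Prdm14* not tested there), from 2 to 1 in RPG4 against RPG3, and from 1 to 0 in meiotic cells (*Nanos3* 0.52), and it moved no other such count by over 1.5 times. The block could not be fitted for RPG4 against SSC1-4, for RPG3 against RPG2, which share 1 library, or for 5C against DMSO. In RPG4 against RPG3, 1 member was called with at least 10 cells and 1 with sums per batch and day, and 0 to 2 with a library left out. Meiotic cells had 0 called with all classes in 1 fit, with at least 10 cells, with a batch term and with sums per batch and day, and 0 to 1 with a library left out. Early-pluripotency cells had 0 to 1, neural cells 1 without the fold limit (*Cbfa2t2*), and scTrio-seq2 RPG3 against RPG2 1 by DESeq2 (*Prdm14*). *Prdm14* in RPG3 against RPG2 missed with all classes in 1 fit (adjusted p = 0.22), with a batch term (adjusted p = 0.074) and with sums per batch and day (adjusted p = 0.14). *Tfap2c* in RPG3 against SSC1-4 also missed without day 20 replicate 2 (0.67), day 20 replicate 8 (0.71) or day 23 replicate 1 (0.75, adjusted p = 0.051). The causes were not tested.

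Counts over all genes moved by over 1.5 times: RPG1 636 (4 with the block, 1126 unfiltered), RPG2 6803 (3102 with the block), RPG3 8071 (3469 with the block), RPG4 against SSC1-4 5629 (3387 without day 20 replicate 2), RPG3 against RPG2 571 (44 in B2, 67 with sums per batch and day, 236 with a batch term, 1265 by DESeq2), RPG4 against RPG3 1237 (372 without day 20 replicate 2, 1926 without day 12 replicate 2), fibroblast-like 811 (4 with the block, 1355 unfiltered), early-pluripotency 393 (40 with the block, 1042 with sums per batch and day), meiotic 246 (0 with sums per batch and day, 697 unfiltered), neural 696 (273 with the block, 1854 unfiltered), scTrio-seq2 RPG3 against RPG2 7 (6 up and 1 down, against 6 and 3 with the other scaling, 1 without replicate 8 of 5C, 82 by DESeq2), and 5C against DMSO 1530 (439 without DMSO replicate 2). The share of RPG3 cells with both *Prdm14* and *Tfap2c* was 24.5% unthinned and 8.27% at 50000 UMIs, with *Tfap2c* and *Nanos3* 51.0% and 12.2%, and with *Prdm1* and *Prdm14* 14.6% and 3.54%, so the shares depend on depth. RPG2 rests on 3 libraries and RPG4 on 2, which limits the changes that could be detected in a gene as low as *Prdm1*.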
